A study of Mus musculus with 16 samples.

Results

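The interferon regulatory factors (IRFs) measured here are the 8 genes Irf1, Irf2, Irf3, Irf4, Irf5, Irf7, Irf8 and Irf9, which were taken by their symbols from a count table of 47069 genes. All 8 passed the filter on low counts, which left 13211 genes for testing. The RNA came from macrophages (BMMs) that had been grown from the bone marrow of C57BL/6 mice, 8 to 10 weeks old, in medium conditioned by L929 cells until day 7. All cells were primed overnight with IFNγ (10 ng/mL) and activated for 1 hr with Salmonella LPS (100 ng/mL) together with immune complexes (ICs) of ovalbumin and IgG. The 2 groups differed in DAPT, a gamma-secretase inhibitor (GSI) that blocks the cleavage of Notch receptors. The GSI group received 25 μM DAPT and the DMSO group the vehicle at 0.01%, with 2 replicates in each group. Each replicate was the sum of 4 runs. Every library was primed and activated, and per the methods the GSI was added overnight before activation. The comparison thus gives GSI against DMSO in cells after activation and holds no resting level. Differences that arose before activation cannot be told apart from those that arose after it. The sources used here do not say whether replicates came from separate animals or cultures, so the p-values measure only the spread between these libraries, which may be technical.

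IRFs are transcription factors that share an amino-terminal DNA-binding domain and recognize GAAA repeats, such as the interferon-stimulated response element (ISRE). IRF3 and IRF7 are phosphorylated by TBK1 and IKKε downstream of Toll-like receptors and cytosolic nucleic acid sensors and drive type I interferon genes. IRF9 binds DNA as part of the complex ISGF3, which acts downstream of the type I interferon receptor. IRF1 is induced by IFNγ and activates ISRE-containing genes, many of which IRF2 can repress. IRF4 and IRF8 bind DNA mostly with partners such as PU.1 and BATF, and IRF5 acts downstream of MyD88 on genes of inflammatory cytokines.

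The promoter windows of the IRFs differ in letter matches to motifs of IFNγ, interferon feedback, NF-κB and Notch signaling. The windows of the 4 genes that held a match and of Irf7 and Irf4, the genes with the largest changes, are given first. Each window holds 300 bases, from 250 before to 50 after the transcription start, from RefSeq on GRCm38.p6, and all 8 genes matched the RefSeq table by symbol. Where the table lists several starts for a gene, the first was used. Both strands were searched for TTCNNNGAA (GAS, the IFNγ-activated site), GAAA repeated after 2 bases of any kind (ISRE), GTGGGAA (the core bound by RBPJ, the DNA-binding partner of Notch) and the NF-κB motif. Capitals mark the matches. The windows shown lie at chr11:53769764-53770063 (plus strand, Irf1), chr8:46739495-46739794 (plus, Irf2), chr8:120736108-120736407 (plus, Irf8), chr7:44997398-44997697 (plus, Irf3), chr7:141266375-141266674 (minus, Irf7) and chr13:30748983-30749282 (plus, Irf4).
Irf1: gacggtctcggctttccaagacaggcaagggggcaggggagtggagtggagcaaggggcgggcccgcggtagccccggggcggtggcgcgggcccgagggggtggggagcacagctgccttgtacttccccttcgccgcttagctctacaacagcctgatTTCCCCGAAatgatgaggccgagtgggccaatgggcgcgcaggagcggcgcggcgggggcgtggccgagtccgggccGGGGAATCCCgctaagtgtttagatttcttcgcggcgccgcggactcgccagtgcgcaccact
Irf2: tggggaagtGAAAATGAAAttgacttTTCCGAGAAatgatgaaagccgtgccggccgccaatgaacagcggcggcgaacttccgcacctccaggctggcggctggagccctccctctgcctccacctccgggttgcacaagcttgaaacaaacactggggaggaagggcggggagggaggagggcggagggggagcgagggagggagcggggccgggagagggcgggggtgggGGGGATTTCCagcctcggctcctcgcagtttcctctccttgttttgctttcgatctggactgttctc
Irf8: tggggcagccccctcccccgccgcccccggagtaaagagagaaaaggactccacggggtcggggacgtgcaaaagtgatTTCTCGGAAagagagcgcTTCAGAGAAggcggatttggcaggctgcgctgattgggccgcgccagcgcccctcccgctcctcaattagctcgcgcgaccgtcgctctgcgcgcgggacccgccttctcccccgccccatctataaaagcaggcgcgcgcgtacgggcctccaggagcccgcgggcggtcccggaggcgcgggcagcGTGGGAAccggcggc
Irf3: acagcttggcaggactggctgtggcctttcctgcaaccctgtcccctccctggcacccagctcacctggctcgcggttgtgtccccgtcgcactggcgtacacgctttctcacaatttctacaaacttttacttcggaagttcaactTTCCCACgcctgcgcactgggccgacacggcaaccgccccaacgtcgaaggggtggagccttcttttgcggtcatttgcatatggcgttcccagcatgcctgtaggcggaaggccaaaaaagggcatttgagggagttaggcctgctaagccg
Irf7: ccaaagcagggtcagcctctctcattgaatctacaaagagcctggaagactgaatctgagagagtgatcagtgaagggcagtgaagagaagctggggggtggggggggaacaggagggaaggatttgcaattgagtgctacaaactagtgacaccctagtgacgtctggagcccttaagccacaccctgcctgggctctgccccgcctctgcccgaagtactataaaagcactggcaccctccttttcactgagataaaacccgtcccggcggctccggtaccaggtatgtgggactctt
Irf4: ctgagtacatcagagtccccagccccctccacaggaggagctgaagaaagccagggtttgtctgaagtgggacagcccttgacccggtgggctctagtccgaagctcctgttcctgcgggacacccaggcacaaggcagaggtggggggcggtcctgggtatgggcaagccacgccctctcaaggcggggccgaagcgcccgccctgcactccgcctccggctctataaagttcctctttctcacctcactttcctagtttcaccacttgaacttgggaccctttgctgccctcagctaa

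The GAS motif stood in 3 of 8 IRF windows, those of Irf1, Irf2 and Irf8, and in 8.3% of all 32851 promoter windows in the table. In the Irf1 window, the GAS motif (TTCCCCGAA) lay from base -90 to -82 and the NF-κB motif from -13 to -4, counted from the first transcribed base as 0. Irf8 carried a pair of GAS motifs, 1 from -171 to -163 and 1 from -153 to -145. The ISRE motif was found in 1 of 8 windows, that of Irf2, where it preceded a GAS motif, and in 3.44% of all windows. GTGGGAA was present in the windows of Irf3, on the minus strand from -103 to -97, and Irf8, from 35 to 41, or in 2 of 8, and in 6.38% of all windows. The NF-κB motif was found in 2 of 8 (Irf1 and Irf2) and in 4.51% of all windows. No match to any of the 4 motifs was found in the windows of Irf4, Irf5, Irf7 and Irf9, so the windows of Irf7 and Irf4 above are in lower case throughout. A match describes the letters of the window and no binding was measured.

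**Figure D1:**
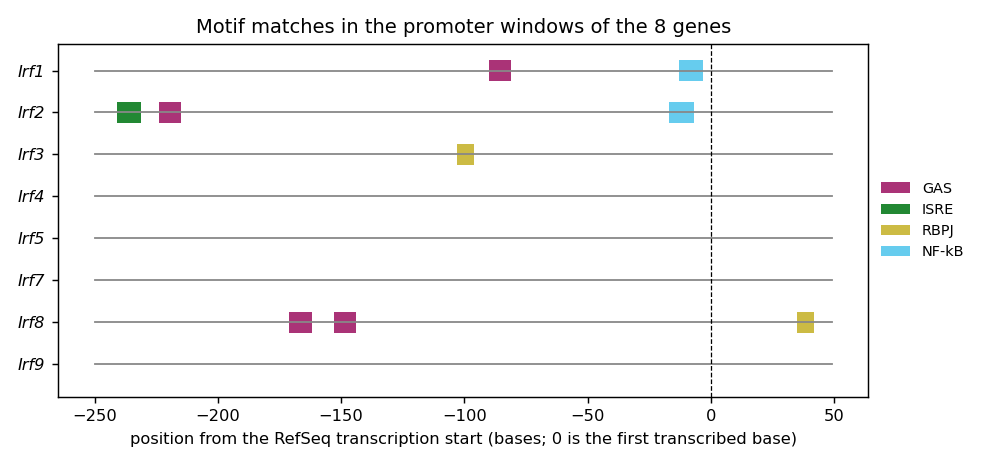
Matches to 4 motifs in the promoter windows of the 8 IRF genes, with the distance in bases from the transcription start on the horizontal axis and 1 line per gene. Marks are matches on either strand; Irf2 and Irf8 carry 3 each, and the lines of Irf4, Irf5, Irf7 and Irf9 are empty.

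The libraries held 42694655 and 56932059 counts in the DMSO group and 48483661 and 49511733 in the GSI group, and a floor of 3 counts corresponded to 0.0527 to 0.0703 in counts scaled to a common library total (CPM). This floor covers counting error only, whereas the intervals below come from edgeR's fit and include the spread between libraries. Marker genes matched the label of macrophages, since the summed level of 9 macrophage markers was 12362 and 12570 CPM with DMSO and 9559 and 10481 CPM with GSI. In the GSI group, 7 of these 9 markers were called lower and 1 higher, beside 21.9% of all genes lower and 19.0% higher. The summed level of 6 markers of conventional dendritic cells was 186 and 179 CPM against 113 and 115 CPM, most of it Clec9a, while Cd209a was at 0, and of 4 tested 2 were called lower and 0 higher by edgeR. The 5 markers of plasmacytoid dendritic cells summed to 466 and 446 CPM against 305 and 326 CPM, most of it Lair1, with Siglech and Klk1 at 0. Of 3 tested, 1 was called higher and 1 lower, and Cox6a2 was at 0.813 and 1.16 CPM against 4.53 and 2.88 CPM. Lists for B cells (0.344 to 0.538 CPM, Blk at 0), T and NK cells (0.476 to 1.06 CPM, Cd3g and Ncr1 at 0) and neutrophils (0.581 to 1.29 CPM, Elane at 0) summed to at most 1.29 CPM. The part of the marker differences in the results below was not tested. In bulk RNA, fewer cells of a type and less RNA per cell cannot be told apart.

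With GSI, 1 of the 8 IRF genes was higher (Irf7), 3 were lower (Irf2, Irf3 and Irf4) and 4 did not pass the test (Irf1, Irf5, Irf8 and Irf9). A gene was called when its FDR, the Benjamini-Hochberg adjusted p of edgeR's quasi-likelihood test over all genes tested, was under 0.05. Among all 13211 genes, 19.0% were called higher, 21.9% lower and 40.8% in either direction, so that the 4 of 8 calls of the family stood near this share. Irf4 also passed an absolute log2 fold change of 1.5, as did 2.91% of all genes. In each of the 8 genes, the CPM of the groups did not overlap, 4 being higher and 4 lower with GSI, against 70.6% of all genes without overlap (35.8% higher and 34.8% lower). The median log2 fold change was -0.02 over the 8 genes and 0.01 over all genes tested. Irf2, Irf4 and Irf7 were called under all 11 alternative settings, whereas Irf3 was called under 5.

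**Figure D2:**
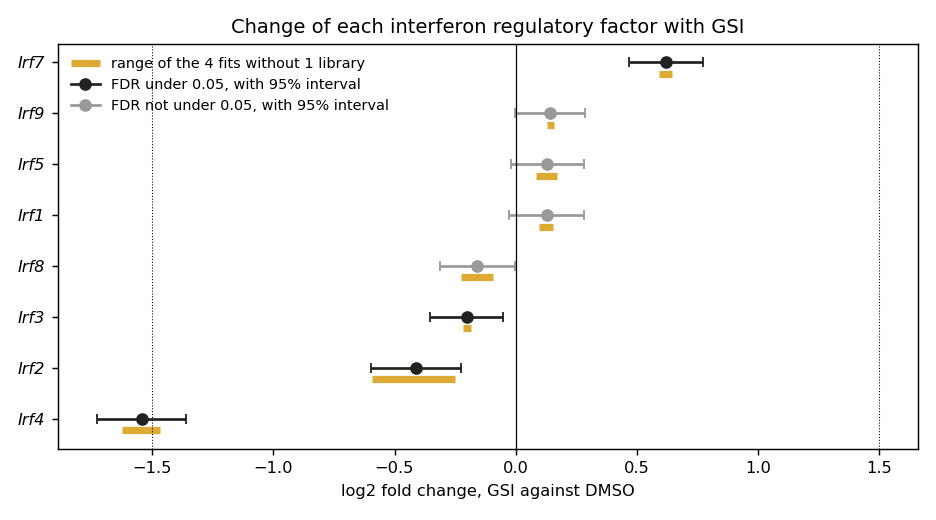
Log2 fold change (GSI against DMSO) of the 8 IRF genes with 95% confidence intervals from edgeR, black for genes called at an FDR under 0.05, gray for the others, and yellow bars for the range when a library was left out. Dotted lines mark the second threshold. Irf7 (0.62) lies to the right of 0, while Irf2 (-0.41), Irf3 (-0.20) and Irf4 (-1.54) lie to the left.

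Irf7 encodes the IRF that is itself induced by interferon and amplifies the production of IFNα. The gene (ENSMUSG00000025498) lies on the minus strand of chr7:141262706-141266481 on GRCm38. Its level was 797 and 772 CPM with DMSO and 1227 and 1182 CPM with GSI, so that both GSI libraries were above both DMSO libraries. The mean of the group was 785 ± 18.0 CPM with DMSO and 1205 ± 31.4 CPM with GSI (SD, n = 2 each). This was a 1.54-fold increase with a log2 fold change of 0.62 (SE 0.0729, 95% interval 0.47 to 0.77, edgeR FDR = 9.62e-07). A larger log2 fold change was found for 6.06% of the genes tested. The increase was 0.59 to 0.65 when any of the 4 libraries was left out. The exons of Irf7 share 45 bases with Phrf1 on the opposite strand, whose level did not pass the test (log2 fold change -0.11, edgeR FDR = 0.288).

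Irf3 encodes a constitutively expressed factor that is activated by phosphorylation and acts on Ifnb1 early after stimulation. The gene (ENSMUSG00000003184) lies at chr7:44997648-45002848 on the plus strand. Irf3 was at 45.3 CPM in each DMSO library and at 39.8 and 38.9 CPM with GSI. The log2 fold change was -0.20 (SE 0.0730, 95% interval -0.36 to -0.05, edgeR FDR = 0.0314). This decrease of 13.1% was the smallest among the IRF genes called. Its direction was kept in every setting, but the call was lost when any of the 4 libraries was left out (edgeR FDR 0.0571 to 0.118), without the filter on low counts (edgeR FDR = 0.0649) and with DESeq2 (adjusted p = 0.0519). Irf3 shares 88 exon bases with Bcl2l12 on the opposite strand, which was not called (log2 fold change 0.05, edgeR FDR = 0.804).

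Irf9 encodes the DNA-binding subunit of ISGF3 and lies at chr14:55603571-55610030 on the plus strand (ENSMUSG00000002325). It was at 90.1 and 88.7 CPM with DMSO and at 97.8 and 99.6 CPM with GSI. Both GSI libraries were above the DMSO libraries, but the log2 fold change of 0.14 did not pass the test (SE 0.0691, 95% interval -0.0015 to 0.29, edgeR FDR = 0.105). Stat2, which encodes another subunit of the complex, rose from 203 ± 3.46 to 263 ± 23.4 CPM (SD, n = 2 in each group; log2 fold change 0.37, edgeR FDR = 0.000461). Irf9 shares 123 exon bases with Rnf31 on the same strand, from which reads in the shared stretch cannot be separated (Rnf31 log2 fold change 0.18, edgeR FDR = 0.0566).

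Irf1 and Irf2 encode an activator and a repressor that compete for the same elements. Irf1 (ENSMUSG00000018899, chr11:53770014-53778374, plus strand) was the family member with the most counts. Its level was 2606 and 2721 CPM with DMSO and 2946 and 2873 CPM with GSI. The GSI libraries were higher without overlap, yet the log2 fold change of 0.13 did not pass the test (SE 0.0740, 95% interval -0.03 to 0.28, edgeR FDR = 0.179). On the opposite strand, Gm17334 shares 135 exon bases with Irf1 and was lower with GSI, with 314 and 295 counts against 33 and 12 (log2 fold change -3.74, edgeR FDR = 7.67e-10). The counts of Gm17334 came to at most 2.80 per 1000 counts of Irf1 in any library. Genes that overlap other members had more counts per 1000 counts of the member. These were 549 to 602 for Rnf31 (Irf9), 89.8 to 113 for Bcl2l12 (Irf3), 80.0 to 106 for Tnpo3 (Irf5) and 33.9 to 60.1 for Phrf1 (Irf7).

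Irf2 (ENSMUSG00000031627, chr8:46739732-46847458, plus strand) was at 133 and 124 CPM with DMSO and at 108 and 85.1 CPM with GSI. The GSI libraries were both lower and stood further apart than the DMSO libraries. The mean fell from 129 ± 6.35 to 96.6 ± 16.2 CPM (SD, n = 2 in each group). This was 0.751 times the DMSO level, with a log2 fold change of -0.41 (SE 0.0890, 95% interval -0.60 to -0.23, edgeR FDR = 0.000917). The size of the decrease rested in part on GSI replicate 2, since the log2 fold change was -0.25 without it (edgeR FDR = 0.0142) and -0.59 without GSI replicate 1. The Irf2 gene, whose window above held a GAS, an ISRE and an NF-κB match, has no exon of another gene on the opposite strand.

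Irf4 encodes a factor that is known in macrophages for alternative activation and for restraining MyD88 signaling. The gene (ENSMUSG00000021356) lies at chr13:30749226-30766976 on the plus strand. The counts of Irf4 were 1347 and 1763 in the DMSO libraries but 489 and 557 in the GSI libraries, which corresponded to 31.3, 31.1, 10.1 and 11.3 CPM. The groups were far apart, although the spread between 2 libraries is a rough measure that can fall below counting error. Its mean level fell from 31.2 ± 0.165 to 10.7 ± 0.823 CPM (SD, n = 2 in each group), a level 2.91-fold lower with GSI. With a log2 fold change of -1.54 (SE 0.0884, 95% interval -1.73 to -1.36, edgeR FDR = 5.18e-11), Irf4 had the largest difference of the 8 IRF genes in these data. A lower log2 fold change was found for 2.03% of the genes tested. The value was -1.62 to -1.47 when a library was left out. Without GSI replicate 1 it was -1.47, so that Irf4 then no longer passed the second threshold of 1.5, while the FDR call was kept.

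Irf8 encodes a factor of the myeloid lineage that is closely related to IRF4. The gene (ENSMUSG00000041515) lies at chr8:120736358-120756694 on the plus strand. Its level was 743 and 733 CPM with DMSO and 691 and 631 CPM with GSI. Both GSI libraries were lower, and GSI replicate 2 lay further from the DMSO libraries than replicate 1. The log2 fold change of -0.16 did not pass the test (SE 0.0744, 95% interval -0.31 to -0.0032, edgeR FDR = 0.0952). Without GSI replicate 1 it was -0.23 and passed (edgeR FDR = 0.0330), and without GSI replicate 2 it was -0.09 (edgeR FDR = 0.448).

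Irf5 encodes a factor linked to inflammatory macrophage activation and lies at chr6:29526625-29541871 on the plus strand (ENSMUSG00000029771). It was at 561 and 596 CPM with DMSO and at 636 and 630 CPM with GSI. The groups did not overlap, but the log2 fold change of 0.13 did not pass the test (SE 0.0723, 95% interval -0.02 to 0.28, edgeR FDR = 0.161). It was 0.08 to 0.17 when a library was left out, the lowest without DMSO replicate 1. Irf5 shares 411 exon bases with Tnpo3 on the opposite strand (log2 fold change -0.15, edgeR FDR = 0.119). Whether the authors' counting used the strand is not given in the sources used here.

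**Figure D3:**
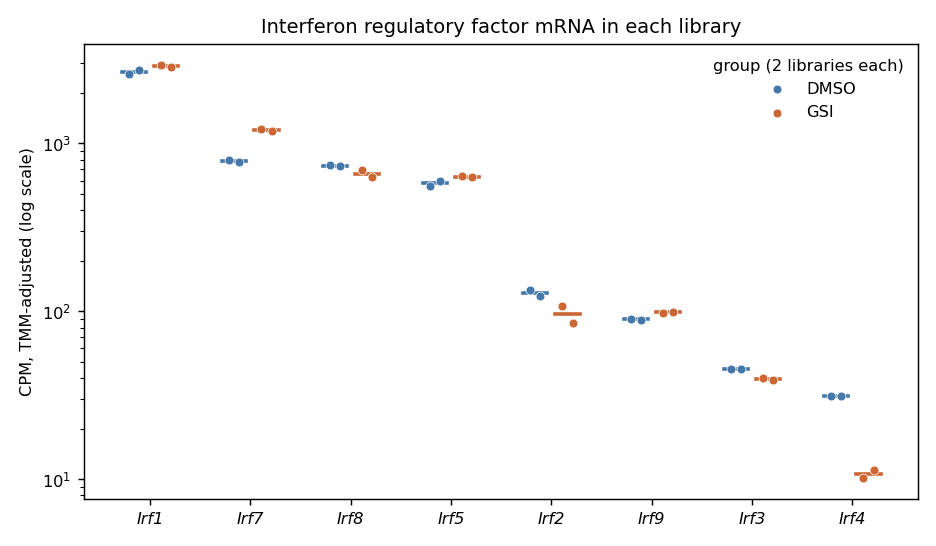
Level of the 8 IRF genes in each of the 4 libraries, in CPM on a log axis, with DMSO and GSI libraries in different colors and bars at the group means. The GSI libraries of Irf4 (10.1 and 11.3 CPM) lie well below its DMSO libraries (31.3 and 31.1 CPM), and those of Irf7 (1227 and 1182 CPM) lie above (797 and 772 CPM).

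To compare levels between the IRF genes, the CPM were divided by the length of all annotated exons of a gene in kb. On this scale the levels spanned the range from Irf4, at 6.36 ± 0.0337 CPM per kb in the DMSO group (SD, n = 2), to Irf1, at 670 ± 20.5 CPM per kb. Irf1 was above 99.6% and Irf4 above 62.6% of the genes tested. Between them stood Irf7 (208 ± 4.76 CPM per kb), Irf5 (199 ± 8.60), Irf8 (105 ± 1.02), Irf2 (17.4 ± 0.859), Irf9 (16.6 ± 0.178) and Irf3 (13.2 ± 0.00329). An SD from 2 libraries, such as those of Irf3 and Irf4, can fall below counting error. The DMSO values of the neighbors Irf7 and Irf5 overlapped, and Irf5 came before Irf7 when the longest transcript was used as the length. The DMSO values of the neighbors Irf2 (18.0 and 16.8 CPM per kb) and Irf9 (16.7 and 16.5) were close but did not overlap. By the longest transcript they lay further apart, with Irf2 at 33.5 and 31.3 and Irf9 at 23.3 and 22.9 CPM per kb. With GSI, Irf7 was at 319 ± 8.31 CPM per kb, apart from Irf5 at 218 ± 1.39, and Irf9 (18.3 ± 0.237) stood above Irf2 (13.1 ± 2.19). By the longest transcript these GSI levels overlapped, with Irf9 at 25.3 and 25.7 and Irf2 at 27.2 and 21.5 CPM per kb. Irf1 made up 54.2% of the summed level per kb of the family with DMSO and 52.0% with GSI. The share of Irf7 was 16.8% and 22.7%, and that of Irf4 0.515% and 0.155%. By the longest transcript the shares were 11.8% and 16.3% for Irf7 and 0.320% and 0.0986% for Irf4.

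Ratios within a library do not depend on its depth and set related members against each other. Irf1 had 19.6 and 21.9 counts per count of Irf2 with DMSO and 27.3 and 33.8 with GSI. The ratio of Irf7 to Irf3 counts was 17.6 and 17.03 against 30.8 and 30.4. Irf4 had 4.21 and 4.24 counts per 100 counts of Irf8 with DMSO and 1.46 and 1.79 with GSI. In each of these pairs the groups did not overlap, as was already so for each member alone and for 70.6% of all genes by CPM. The ratio of Irf8 to Irf1 moved less, also without overlap, with 28.5 and 26.9 Irf8 counts per 100 Irf1 counts against 23.5 and 21.95. With 2 libraries against 2, an exact permutation test cannot give a 2-sided p below 0.333, so no test was made of the ratios.

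**Figure D4:**
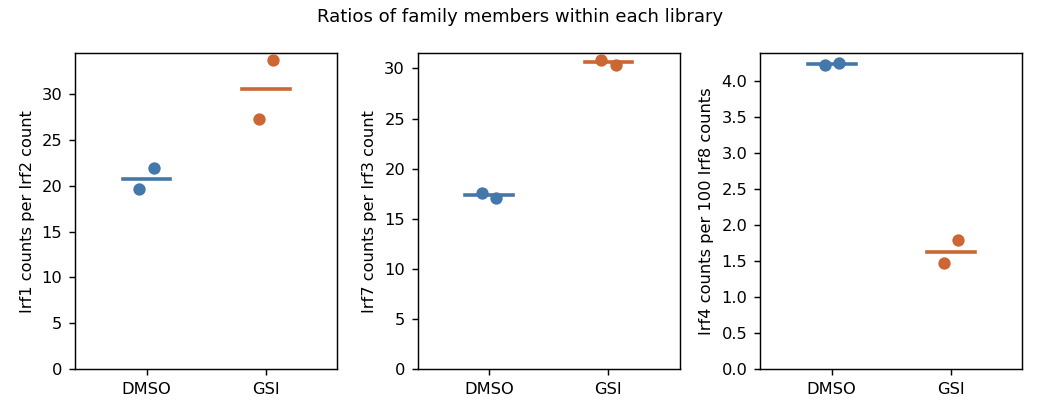
Ratios of counts between pairs of IRF genes in each library, DMSO and GSI libraries side by side, with axes that start at 0. Irf1 to Irf2 (19.6 and 21.9 against 27.3 and 33.8) and Irf7 to Irf3 (17.6 and 17.03 against 30.8 and 30.4) are higher with GSI, and Irf4 per 100 Irf8 is lower. Horizontal bars are group means.

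Beyond the IRF genes themselves, 7 lists of genes that act before, with or after them were described. The table holds 144 of these genes. Testing covered 135 of them, of which 42 were higher, 42 lower and 51 not called, or 62.2% called against 40.8% of all genes. Leaving out a library lowered the number of calls in general, from 5392 of 13211 genes to 4162 of 13574 without DMSO replicate 1, 4370 of 13522 without DMSO replicate 2, 4978 of 13626 without GSI replicate 1 and 4848 of 13613 without GSI replicate 2. The counts per list below that leave out a library stand beside these.

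Of 23 sensors, adaptors and kinases that act upstream of IRF activation, 3 were higher, 11 lower and 9 not called, beside 19.0% higher and 21.9% lower among all genes, with a median log2 fold change of -0.19 against 0.01 over all genes. Ticam1, the adaptor TRIF of TLR3 and TLR4, fell from 69.1 ± 1.95 to 43.1 ± 2.08 CPM (SD, n = 2 in each group; log2 fold change -0.68, edgeR FDR = 3.01e-07). The kinase gene Ikbkb (-0.45) and the RNA sensor Tlr7 (-0.44) were also lower. Among the genes that rose were Ikbke, the kinase IKKε of IRF3 and IRF7 (0.33), the RNA sensor Ddx58 (0.32) and the TBK1 adaptor Azi2 (0.26). Tbk1 did not pass the test (log2 fold change -0.07, edgeR FDR = 0.423).

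Among interferons, their receptors and the attached kinases and STATs, 3 of 11 genes tested were higher, 5 lower and 3 not called, beside 19.0% higher and 21.9% lower among all genes, with a median log2 fold change of -0.06. Ifnb1, the gene of IFNβ and a target of IRF3 and IRF7, rose from 10.2 and 13.1 CPM to 27.1 and 27.9 CPM (log2 fold change 1.23, SE 0.102, edgeR FDR = 7.51e-09). The third gene called higher, Ifna2 (edgeR FDR = 0.00172), was at 0.279 and 0.229 CPM against 0.703 and 0.729 CPM and is named after its values were seen. The receptor chains Ifngr1 (-0.62) and Ifnar1 (-0.36) and the kinase Jak2 (-0.52) were lower. Without DMSO replicate 1 or DMSO replicate 2, 3 genes of this list were called lower in place of 5. Ifna1, Ifna4, Ifna5 and Ifng were not tested, with at most 11 counts in a library.

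The list of DNA-binding partners had 3 of 16 genes higher, near the 19.0% of all genes, 8 lower, against 21.9% of all genes, and 5 not called, with a median log2 fold change of -0.19. Ets1 fell from 4.33 ± 0.0198 to 1.62 ± 0.0244 CPM (SD, n = 2 in each group; log2 fold change -1.42, edgeR FDR = 4.19e-07). Ikzf1, the gene of Ikaros (-0.67), and Batf3 (-0.60) were lower as well. Batf (0.66), Batf2 (0.45) and Jund (0.27) were higher. The call of Jund was lost without DMSO replicate 1 (log2 fold change 0.15, edgeR FDR = 0.276) and without GSI replicate 1 (0.16, edgeR FDR = 0.150). Spi1, the gene of PU.1 with which IRF4 and IRF8 bind DNA, was at 363 and 371 CPM against 373 and 358 CPM (log2 fold change -0.01, edgeR FDR = 0.957).

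Of 20 co-regulators and inhibitors, 4 were higher, 5 lower and 11 not called, near the shares of all genes (19.0% higher and 21.9% lower), with a median log2 fold change of 0.02. The feedback inhibitors Usp18 (0.71) and Socs1 (0.46) were higher, and so was Irf2bp1 (0.37), whose product binds IRF2. Irf2bp1 was not called without DMSO replicate 1 (log2 fold change 0.25, edgeR FDR = 0.216) or with DESeq2 (adjusted p = 0.0969). The related Irf2bpl fell from 15.99 ± 0.825 to 8.79 ± 0.827 CPM (SD, n = 2 in each group; log2 fold change -0.86, edgeR FDR = 7.89e-07). The kinase gene Lyn (-0.57), whose product inhibits IRF5, and the acetyltransferase gene Kat2b (-0.36) were lower. Without DMSO replicate 1, 2 genes of this list were called higher in place of 4.

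Of 25 targets of ISGF3, IRF3 and IRF7, 21 were higher with GSI, 1 lower and 3 not called, beside 19.0% higher and 21.9% lower among all genes, with a median log2 fold change of 0.49. Isg20, the gene of an interferon-induced exonuclease, rose from 10.9 and 11.7 CPM to 40.5 and 32.8 CPM (log2 fold change 1.69, SE 0.0994, edgeR FDR = 7.42e-11). The chemokine gene Ccl5 rose from 362 and 424 to 956 and 938 CPM (log2 fold change 1.27, edgeR FDR = 2.38e-10). Bst2, the gene of tetherin, had a log2 fold change of 0.80. Parp14 was the gene called lower (log2 fold change -0.19, edgeR FDR = 0.0447), and this call was lost without DMSO replicate 1, DMSO replicate 2 or GSI replicate 2, which left 0 genes called lower. Usp18 belongs to this list and to that of inhibitors.

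Of 28 targets of IRF1 and IRF8 tested, 10 were higher, 4 lower and 14 not called, beside 40.8% of all genes called (19.0% higher and 21.9% lower), with a median log2 fold change of 0.08. Nos2, the inducible nitric oxide synthase gene, rose from 24.9 ± 1.49 to 245 ± 6.92 CPM (SD, n = 2 in each group), a 9.86-fold increase (log2 fold change 3.30, edgeR FDR = 7.91e-17). Psmb10, a subunit gene of the immunoproteasome, had a log2 fold change of 0.52. Il12b, the gene of IL-12p40, fell from 24.5 and 23.2 CPM to 12.4 and 11.9 CPM (log2 fold change -0.97, edgeR FDR = 2.63e-08). The paper also names Nos2 as higher and Il12b as lower with GSI. Ebi3 (-0.20) was also lower, a call that was lost without DMSO replicate 1, DMSO replicate 2 or GSI replicate 2 (edgeR FDR 0.0520 to 0.181). Without DMSO replicate 2, 6 genes of this list were called higher in place of 10, and without either DMSO replicate 1 or 2, 2 were called lower in place of 4.

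In the list of IRF4 and IRF5 targets, 9 of 15 genes tested were lower, 0 higher and 6 not called, beside 21.9% lower and 19.0% higher among all genes, with a median log2 fold change of -0.74. The count of genes higher was also 0 at an unadjusted p of edgeR under 0.05 and with DESeq2. The list joins targets of both factors, which its counts do not tell apart. Arg1, named after its values were seen, was among the 9 at 0.442 and 0.317 CPM against 0.145 and 0.162 CPM. With at least 10 counts required in every library, 8 genes were lower. Il10 fell from 309 and 357 CPM to 79.6 and 110 CPM (log2 fold change -1.81, SE 0.109, edgeR FDR = 1.11e-10). Il1b fell from 2491 and 2229 CPM to 758 and 686 CPM (log2 fold change -1.71, edgeR FDR = 4.81e-12). Il10, Il1b and Il12b are also among the genes that the paper names as reduced with GSI. Mrc1, the mannose receptor gene of alternatively activated macrophages, fell from 15.7 ± 0.563 to 6.40 ± 0.338 CPM (SD, n = 2 in each group; log2 fold change -1.29, edgeR FDR = 3.54e-09). Tnf (0.08), Il6 (0.04), Ccl3 (0.04) and Ccl4 (0.04) were among the 6 genes that did not pass the test and are named after their values were seen. Il12b stands in this list and in that of IRF1 and IRF8 targets. Many of the listed genes also answer to NF-κB and to other factors, and no binding of an IRF was measured.

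**Figure D5:**
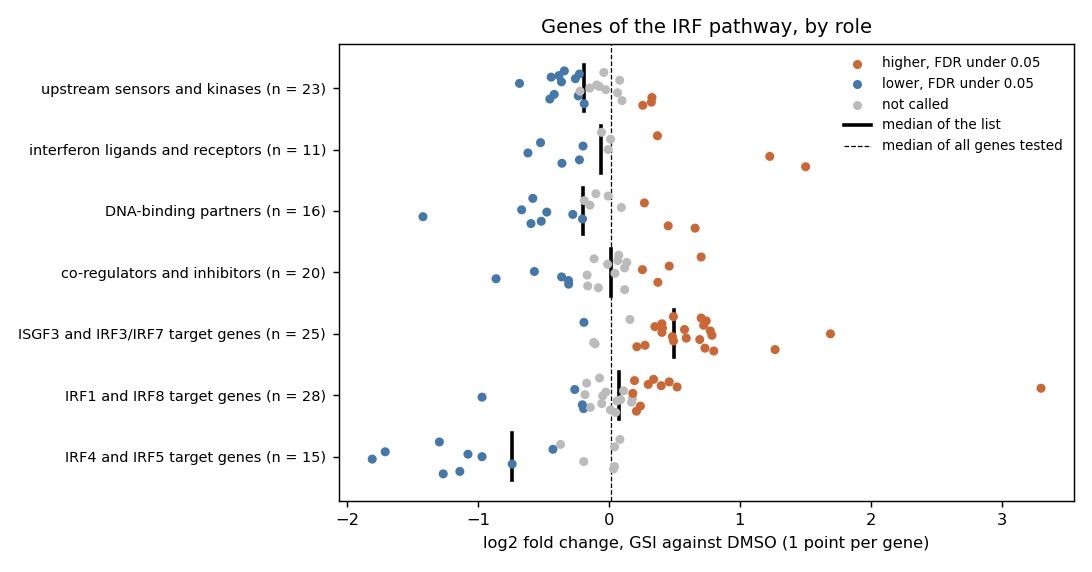
Log2 fold change (GSI against DMSO) of every tested gene in the 7 lists, 1 row of points per list, with genes called higher in orange, called lower in blue, the others in gray, and a bar at each median. The medians run from -0.74 (IRF4 and IRF5 targets) to 0.49 (ISGF3 and IRF3/IRF7 targets), beside 0.01 for all genes tested.

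For the called members with the largest increase and the largest decrease, the genes with the most similar pattern over the 4 libraries were found among 7573 tested genes with a mean of at least 10 CPM. Similarity was the Euclidean distance between log2 CPM centered on the mean of each gene. The nearest genes to Irf7 were Tmem140 (distance 0.0168), Stxbp5 (0.0190) and Gars (0.0271), and 67 genes lay within a distance of 0.1. Tmem140, for example, was at 129 and 125 CPM with DMSO and at 200 and 194 CPM with GSI. Irf4 had fewer near genes, with 5 within a distance of 0.1. The nearest were AI504432 (0.0427), Anln (0.0430) and Olr1 (0.0520), and Anln, the gene of anillin in cytokinesis, was at 17.8 and 17.4 CPM against 5.63 and 6.52 CPM. With 4 libraries, such likeness is a description with no test.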

How the data were processed

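RNA-seq was analysed for 2 DMSO and 2 GSI replicates of activated BMMs, each the sum of 4 columns (16 in all) that were taken as runs, since the labels do not define the last number of the titles. Per the paper's methods and the submitters' processing notes, the authors made strand-specific poly(A) libraries, trimmed reads with Trimmomatic, aligned them with STAR (2.5.0a in the notes) to the mouse genome (mm10, the GRCm38 build, in the paper) and used HTSeq for counting. The notes name mm9 as well as mm10, without a role. What they deposited are raw counts of genes in each run, not normalized. The GSI was added overnight before activation, per the methods, while legends of other experiments in the paper give a shorter pretreatment. The HTSeq mode and strand setting are not given in the sources used here. Genes that overlap on 1 strand or have near-identical copies may share reads.

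GSI was compared with DMSO in edgeR 4.0.16 (R 4.3.3) by the quasi-likelihood test, after filterByExpr and TMM scaling, in a model of group alone. P-values of 13211 genes were adjusted by the Benjamini-Hochberg method. The thresholds were an FDR of 0.05 and, as a second, an absolute log2 fold change of 1.5. CPM used TMM-adjusted library sizes, and distances between patterns used a prior count of 2. DESeq2 1.42.0, other scalings and filters, a replicate block and the removal of each library were alternatives. Scripts were tested on simulated data. GENCODE M21 (GRCm38), which holds 98.9% of the IDs in the table, gave positions and exon lengths.

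The IRF genes, the lists and the tests were chosen with earlier results of these data known, and the lists were written from general knowledge. Named were all 8 IRF genes, the 3 largest called changes in each direction of each list among genes with a mean of at least 1 CPM, and the 3 nearest genes to Irf7 and to Irf4. Some genes that this rule names are not reported here. Other genes named are marked in the text or serve a result on an IRF gene.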

Additional observations from a re-analysis of the deposited data

How the results depend on the processing

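Of the 8 IRF genes, none changed direction under the 11 alternatives. Irf2, Irf4 and Irf7 were called in all 11, Irf3 in 5, Irf8 in 2 and Irf1, Irf5 and Irf9 in 0. When each library was left out in turn, 1 IRF gene was called higher, 2 to 3 lower and 0 to 1 passed both thresholds, while 4162 to 4978 of all genes were called against 5392. Over the same removals, 3 to 4 interferon and receptor genes were called higher and 3 to 5 lower. The ranges were 2 to 4 higher and 7 to 10 lower for DNA-binding partners, 2 to 4 and 4 to 5 for co-regulators, 3 and 8 to 10 for upstream genes, 19 to 21 and 0 to 1 for ISGF3 and IRF3/IRF7 targets, 6 to 10 and 2 to 3 for IRF1 and IRF8 targets, and 0 and 7 to 9 for IRF4 and IRF5 targets. With a group of 1 library, that library is assumed to vary like the others. DESeq2 called 2 co-regulators higher and 2 IRF genes lower, and 4222 of all genes. In an alternative chosen after seeing the data, which left out genes other than the IRFs with exons on the opposite strand, 1 DNA-binding partner was called higher and 5 lower, 3 co-regulators lower, and 4 targets of IRF1 and IRF8 higher, with fewer genes tested. Over all genes, 385 passed both thresholds, 154 with at least 10 counts in every library and 179 in that later alternative. Replicate numbers are shared between the groups, but only 2 pairs exist and no label says that a number marks a shared culture. The deviations of same-numbered libraries correlated with 0.175 over 10957 genes. With a replicate block, 6444 genes were called in place of 5392, and 4 IRF genes were lower, with Irf8 at -0.16 (edgeR FDR = 0.0421). The block ended no call of an IRF gene. With the longest transcript as the length, the DMSO levels per kb were 1246 CPM for Irf1, 258 for Irf5, 242 for Irf7, 213 for Irf8, 32.4 for Irf2, 23.1 for Irf9, 22.3 for Irf3 and 6.55 for Irf4. Of 378 values of 35 named list genes under the alternatives, 368 kept their call, 10 lost it (in Jund, Irf2bp1, Parp14 and Ebi3) and 0 reversed. The interferon genes under 1 CPM rest on few counts, and the part of depth in this was not tested.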
